A study of Mus musculus with 2 samples.

Results

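The 10 genes described here are the cytokine receptor genes Il7r, Il2rb, Il2rg, Il4ra, Il6ra, Il21r and Il18r1 and the feedback inhibitor genes Socs1, Socs3 and Cish. They were taken by symbol from the 27998 genes of the deposited counts, where each symbol matched 1 gene. Their RNA was followed in single blood mononuclear cells of female C57Bl/6 mice aged 10 weeks. The mutant mice carried 2 altered alleles of the mevalonate kinase gene Mvk, V377I and del91 (MvkV377I/del91), and the wildtype mice were Mvk+/+. For either genotype the blood of 3 mice was combined, separated over Ficoll, freed of red cells and sorted for events negative for DAPI and Ter119, and 1 library was made with the 10x Genomics 3' v2 chemistry. Genotype, mouse pool and library therefore cannot be told apart, no test over animals can be made, and every value below describes these 2 libraries.

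Receptors of this kind pair a chain that is specific for a cytokine with a shared signalling chain. Il2rg encodes the common gamma chain, which joins Il7r, Il4ra, Il21r or Il2rb in the receptors for IL-7, IL-4, IL-21 and, with Il2rb, for IL-2 and IL-15. Bound receptors activate Janus kinases and STAT transcription factors, and the STAT factors switch on Socs1, Socs3 and Cish, whose proteins act back on the receptors and kinases and damp the signal. Il6ra binds IL-6 and signals through the partner chain Il6st, while Il18r1 binds IL-18 and belongs to the interleukin-1 receptor family, which signals through Myd88 and not through Janus kinases. In mice, IL-7 is known to keep naive T cells alive, and IL-15 keeps natural killer (NK) cells and memory CD8 T cells alive.

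STAT dimers are known to bind the palindrome TTCNNNGAA, and the promoters of the 3 feedback genes are shown because their RNA is what such binding switches on. Each line runs 5' to 3' from 250 bases before to 30 after the transcription start in RefSeq (GRCm38.p6), on the strand of the gene, with matches to TTCNNNGAA in capitals. The motif reads alike on both strands. The windows lie at chr11:117969337-117969616 (minus strand) for Socs3, chr16:10785507-10785786 (minus strand) for Socs1 and chr9:107296409-107296688 (plus strand) for Cish. The GENCODE annotation begins Socs3 and Cish further upstream (genes at 117966079 to 117970047 and 107296026 to 107302784). Their windows thus lie inside the GENCODE genes, and the bases around the GENCODE starts were not scanned.
Socs3: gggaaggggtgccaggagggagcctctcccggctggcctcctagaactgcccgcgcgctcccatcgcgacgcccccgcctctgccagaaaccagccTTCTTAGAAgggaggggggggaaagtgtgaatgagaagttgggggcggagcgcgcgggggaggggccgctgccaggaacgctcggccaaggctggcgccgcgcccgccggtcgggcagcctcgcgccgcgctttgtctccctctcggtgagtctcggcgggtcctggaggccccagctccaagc
Socs1: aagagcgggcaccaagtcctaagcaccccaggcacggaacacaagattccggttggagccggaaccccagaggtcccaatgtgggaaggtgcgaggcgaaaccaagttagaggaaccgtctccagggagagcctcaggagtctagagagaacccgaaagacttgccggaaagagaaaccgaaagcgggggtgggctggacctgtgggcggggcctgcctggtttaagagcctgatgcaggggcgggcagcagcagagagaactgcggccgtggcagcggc
Cish: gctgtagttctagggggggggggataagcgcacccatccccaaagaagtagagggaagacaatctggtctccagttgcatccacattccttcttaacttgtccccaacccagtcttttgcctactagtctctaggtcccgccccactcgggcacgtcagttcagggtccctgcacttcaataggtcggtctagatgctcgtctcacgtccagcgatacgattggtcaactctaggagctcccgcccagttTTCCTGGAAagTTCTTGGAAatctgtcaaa
Socs3 holds 1 match, TTCTTAGAA, which begins at position -154 from the start. Cish holds 2, TTCCTGGAA at position 1 and TTCTTGGAA at position 12, and Socs1 holds 0. Of 32851 promoter windows of 300 bases in RefSeq, 2726 (8.298%) hold a match and 150 (0.4566%) hold 2 or more. Promoters were found for 9 of the 10 genes, all but Il2rb, in 11 windows, and 4 genes have a match in a window: Il7r, Il18r1, Socs3 and Cish. A match describes the letters and does not show that a factor was bound in these cells.

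The mutant library held 14513059 unique molecular identifiers (UMIs, 1 per captured RNA molecule) and the wildtype library 15385199. After filters (at least 800 UMIs and 200 genes, at most 10% mitochondrial UMIs), 4190 mutant cells with a median of 1968 UMIs and 5225 wildtype cells with a median of 2036 UMIs remained, and 28 cell barcodes occurred in both libraries. Cells were typed by UMIs of marker genes that include none of the 10 genes, which placed 3385 mutant cells (80.8%) and 4381 wildtype cells (83.8%) in 7 types. T-like cells were CD8 T-like (at least 2 UMIs of Cd8a and Cd8b1) or CD8-negative T-like, and each kind was naive-like or memory-like by the larger of 2 marker sums. The mutant and wildtype libraries had 196 and 295 memory-like CD8 T cells, 490 and 727 naive-like CD8 T cells, 262 and 305 memory-like CD8-negative T cells, 871 and 950 naive-like CD8-negative T cells, 1272 and 1130 B-like cells, 190 and 869 NK-like cells, and 104 and 105 monocyte-like cells. Of the CD8-negative cells, 41 mutant and 84 wildtype memory-like and 201 mutant and 219 wildtype naive-like cells had a Cd4 UMI, so the type is named for what it lacks. The T, B, NK and monocyte types were each led by their own set among these 4 lineage sets: T markers stood at 3322 to 4091 CPM (counts per 1000000 UMIs of the type in that library) in the T-like types and at 230 to 270 CPM elsewhere, and NK markers at 5772 CPM in mutant and 7622 CPM in wildtype NK-like cells. The memory marker set, used within T-like cells only, is not particular to T cells and stood at 11223 CPM in mutant and 10624 CPM in wildtype NK-like cells. Haemoglobin and other red cell markers stood at 2362 to 2733 CPM over the 7 types of the mutant library and at 224 to 313 CPM over those of the wildtype library. NK markers in the 4 T-like types stood at 12.9 to 104 CPM in the mutant and 71.0 to 203 CPM in the wildtype library. Mvk itself had 47 mutant UMIs (4.98 CPM) and 65 wildtype UMIs (5.45 CPM), a ratio of 0.914 (0.614 to 1.35). The 3' tags do not show which allele was transcribed, so this value does not check the genotype.

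**Figure D1:**
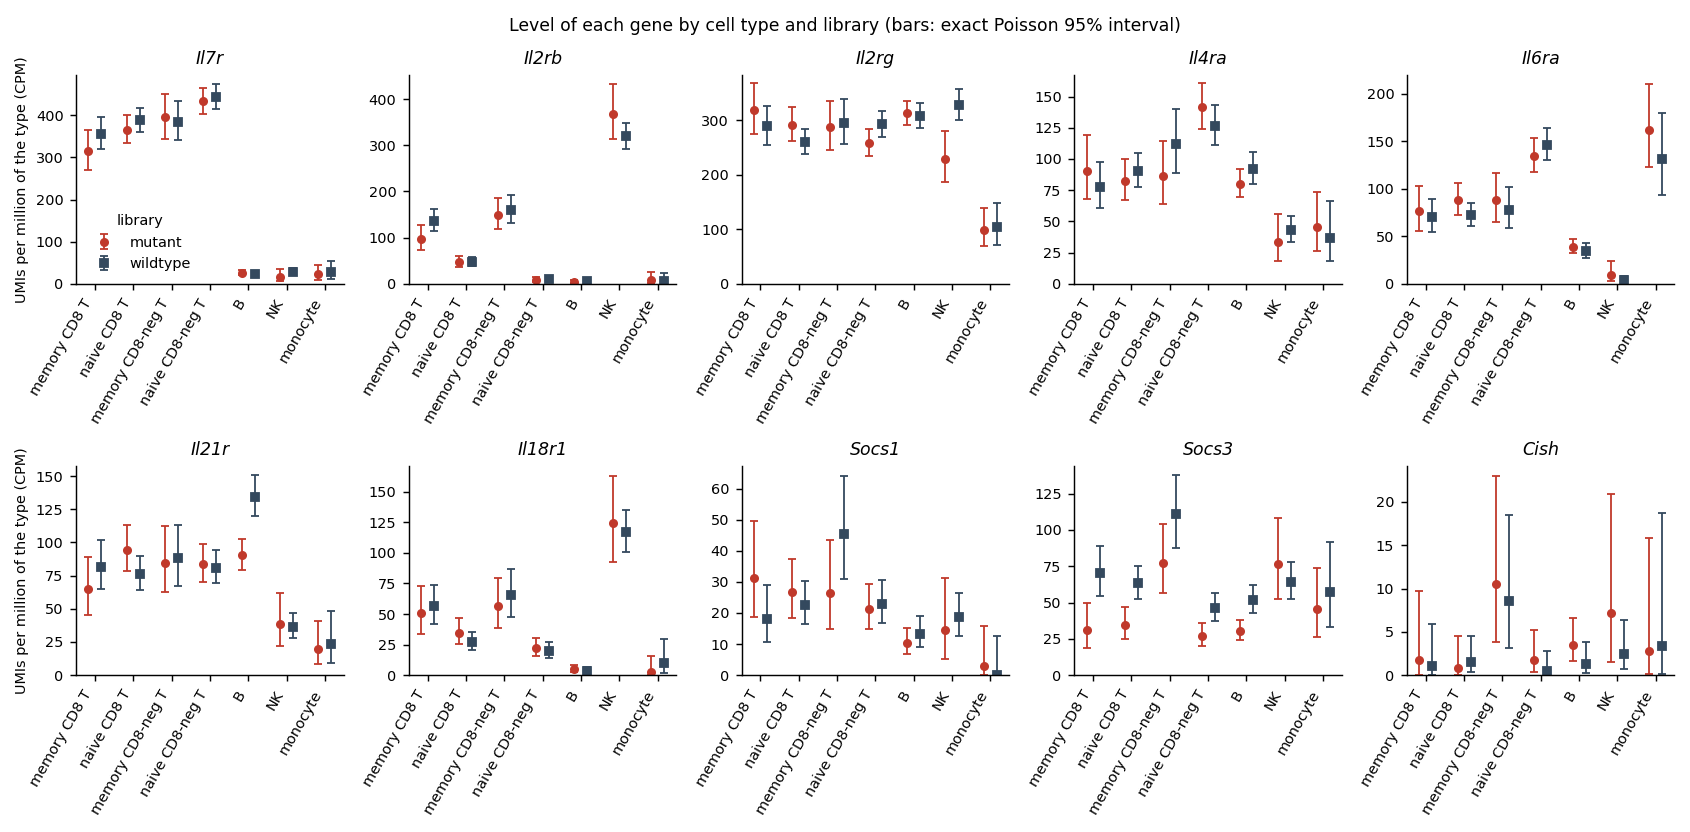
Level of each of the 10 genes in CPM (linear vertical axis, own scale per gene) by cell type in the mutant library (circles) and the wildtype library (squares). Bars are exact Poisson 95% intervals. Il7r is high in the 4 T-like types and under 30 CPM elsewhere, Il2rb and Il18r1 peak in NK-like cells, and mutant Socs3 lies below wildtype Socs3 in 6 of 7 types.

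Il2rg, the common gamma chain, was present in all 7 types and lowest in monocyte-like cells. Outside monocyte-like cells it spanned 229.7 to 319 CPM in the mutant and 261 to 328 CPM in the wildtype library. In the mutant library it stood at 319 CPM in memory-like CD8 T, 292 in naive-like CD8 T, 287 in memory-like CD8-negative T, 258 in naive-like CD8-negative T, 99.5 in monocyte-like, 313 in B-like and 229.7 in NK-like cells. In the wildtype library the same types stood at 289, 261, 295, 293, 104, 308 and 328 CPM. In both libraries no neighbours in the order of levels differed beyond counting error until the step down to monocyte-like cells. Types further apart in that order were not compared here, so this does not show them to be level. NK-like cells were second from the bottom of the order in the mutant library and at its top in the wildtype library: 96 mutant UMIs against 529 wildtype UMIs, a ratio of 0.701 (95% counting interval 0.558 to 0.872). A UMI of Il2rg was found in 38.9% of mutant and 43.6% of wildtype NK-like cells, whose median depths were 2007 and 1662 UMIs, and thinned to 800 UMIs per cell the shares were 16.8% and 23.4%. Monocyte-like cells, the lowest type, had thinned shares of 7.03% and 7.44%. The annotated gene Gm20489 lies on the same strand over the last exon of Il2rg (chromosome X, 101264378 to 101265037, GRCm38), and how reads shared by both were counted is not given in the sources used here.

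Il7r, the IL-7 receptor alpha chain, set the T-like types apart from all others. Memory-like CD8 T cells had 181 mutant UMIs (316 CPM) and 336 wildtype UMIs (357 CPM), and naive-like CD8 T cells 453 (366 CPM) and 754 (388 CPM). Memory-like CD8-negative T cells had 224 (395 CPM) and 271 (385 CPM), and naive-like ones 735 (433 CPM) and 886 (443 CPM). These 4 types were the top 4 in both libraries, and naive-like CD8-negative T cells led each time, by more than counting error in the wildtype library only. B-like cells had 26.1 and 22.5 CPM, NK-like cells 16.8 and 28.5 CPM and monocyte-like cells 22.7 and 27.0 CPM, which lay below the 177 and 224 CPM of free RNA (barcodes with at most 20 UMIs). Lying below free RNA does not by itself mark background. Wildtype Il2rg, at most 328 CPM in any type, also lay below its free RNA level of 350 CPM. Il7r was seen in 51.3% of mutant and 53.8% of wildtype naive-like CD8-negative T cells (27.8% and 28.1% after thinning), against 4.09% and 3.81% of B-like cells (1.68% and 1.46% after thinning), at median depths of 1930 and 2067 UMIs for the T-like and 1588.5 and 1588 UMIs for the B-like cells. The B-like share is taken as background here, which was not tested. In the 4 T-like types the ratio of mutant over wildtype ran from 0.885 to 1.03, and all 4 intervals held 1.

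Il2rb, the signalling chain shared by IL-2 and IL-15 receptors, was graded across the types. NK-like cells had 154 mutant UMIs (369 CPM) and 516 wildtype UMIs (319.8 CPM). Memory-like CD8-negative T cells followed with 149.9 and 160.4 CPM, memory-like CD8 T cells with 97.6 and 136 CPM, and naive-like CD8 T cells with 46.9 and 47.3 CPM. The lowest values were those of naive-like CD8-negative T cells (8.25 and 10.01 CPM), B-like cells (5.00 and 7.06 CPM) and monocyte-like cells (8.53 and 6.74 CPM on 3 and 2 UMIs). In the mutant library each step of this order down to naive-like CD8 T cells was larger than counting error, and in the wildtype library the step between the 2 memory-like types was not (1.18, 0.909 to 1.53). Il2rb was seen in 55.3% of mutant and 41.7% of wildtype NK-like cells and, after thinning, in 25.8% and 21.8%, against 0.360% and 0.635% of thinned B-like cells. The naive-like CD8-negative T share after thinning, 0.746% and 0.715%, was close to that of B-like cells, so the RNA of this chain was not detectable there above background at this depth.

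Il4ra and Il21r, the chains specific for IL-4 and IL-21, were both found in T-like and B-like cells. Il4ra was highest in naive-like CD8-negative T cells in both libraries, with 240 mutant UMIs (141 CPM) and 253 wildtype UMIs (127 CPM). The lead over the next type exceeded counting error in the mutant library only (1.56, 1.15 to 2.15, against 1.13, 0.873 to 1.47, in the wildtype library). The other T-like and B-like types stood at 79.9 to 90.7 CPM in the mutant and 77.5 to 112 CPM in the wildtype library, and NK-like cells at 33.5 and 42.8 CPM. Il21r had 64.5 to 94.5 CPM in the 4 T-like types of the mutant library and 76.1 to 88.0 CPM in those of the wildtype library, with no neighbours in order apart by more than counting error. The ends of the mutant range, memory-like over naive-like CD8 T cells, stood at a ratio of 0.682 (0.458 to 0.995). B-like cells had 235 mutant UMIs (90.3 CPM) and 305 wildtype UMIs (135 CPM). They thus lay within the T-like range in the mutant library. In the wildtype library they lay above every T-like type, and the next type was 1.53-fold (1.16 to 2.04) lower. Monocyte-like cells held 7 Il21r UMIs in each library.

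Il6ra, which binds IL-6, had 2 high types of different lineage. Monocyte-like cells had 57 mutant UMIs (162 CPM) and 39 wildtype UMIs (131 CPM), and naive-like CD8-negative T cells had 229 (135 CPM) and 292 (146 CPM). The remaining T-like types stood at 76.7 to 88.2 CPM in the mutant and 70.1 to 78.1 CPM in the wildtype library. B-like cells had 39.2 and 34.4 CPM, and NK-like cells only 4 and 6 UMIs (9.57 and 3.72 CPM). Classical-like monocytes, by Ly6c2, Ccr2 and other markers, had 35 mutant and 10 wildtype UMIs, and non-classical-like monocytes 22 and 28, so both kinds carried the gene (166 and 166 CPM in the mutant, 92.6 and 159.6 CPM in the wildtype library). The shares of monocyte-like cells with an Il6ra UMI, 33.7% for the mutant and 30.5% for the wildtype library, stood far above the 2.11% and 0.575% of NK-like cells, whose median depth of 2007 and 1662 UMIs was below the 2916.5 and 2215 UMIs of monocyte-like cells; after thinning the shares were 12.3% and 10.5% against 0.637% and 0.254%.

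Il18r1, the IL-18 binding chain, had the same 4 types at the top as Il2rb, in the same order in both libraries. NK-like cells had 52 mutant UMIs (124 CPM) and 189 wildtype UMIs (117 CPM). Memory-like CD8-negative T cells had 56.4 and 65.3 CPM and memory-like CD8 T cells 50.6 and 56.3 CPM, while naive-like CD8 T cells had 34.7 and 27.3 CPM and naive-like CD8-negative T cells 21.8 and 20.02 CPM. B-like cells held 13 and 8 UMIs (5.00 and 3.53 CPM) and monocyte-like cells 1 and 3 UMIs. NK-like cells were above the next type by more than counting error in both libraries (2.21, 1.39 to 3.54, in the mutant and 1.79, 1.29 to 2.53, in the wildtype library). After thinning, 10.3% of mutant and 9.42% of wildtype NK-like cells had an Il18r1 UMI, against 0.295% and 0.267% of B-like cells.

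Socs3, a feedback inhibitor best known for IL-6 family signals, was the feedback gene with the most UMIs, 345 in mutant and 731 in wildtype cells. Memory-like CD8-negative T cells led in both libraries with 44 mutant UMIs (77.6 CPM) and 78 wildtype UMIs (111 CPM). NK-like cells had 32 (76.6 CPM) and 104 (64.4 CPM). The values were lower in the mutant library for memory-like CD8 T cells with 18 UMIs (31.4 CPM) against 66 (70.1 CPM), naive-like CD8 T cells with 43 (34.7 CPM) against 123 (63.3 CPM), naive-like CD8-negative T cells with 46 (27.1 CPM) against 92 (46.0 CPM) and B-like cells with 79 (30.4 CPM) against 118 (52.1 CPM). Monocyte-like cells had 16 (45.5 CPM) and 17 (57.3 CPM). The mutant levels of CD8 T-like and B-like cells thus lay below those of mutant NK-like cells, while the wildtype levels lay near those of wildtype NK-like cells.

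Socs1, which blocks Janus kinases directly and is strongly induced by interferon-gamma, had few UMIs, at most 46 per type and library. It stood at 31.4 mutant and 18.0 wildtype CPM in memory-like CD8 T cells (18 and 17 UMIs) and at 26.4 and 45.4 CPM in memory-like CD8-negative T cells (15 and 32 UMIs). The naive-like types had 26.7 and 22.6 CPM (CD8) and 21.2 and 23.0 CPM (CD8-negative), B-like cells 10.4 and 13.2 CPM and NK-like cells 14.4 and 18.6 CPM. Monocyte-like cells held 1 UMI in the mutant library and 0 in the wildtype library, where 3 counts, the limit that a count of 0 allows, would be 10.1 CPM. Cish, a STAT5-induced inhibitor, had 35 mutant and 28 wildtype UMIs in all cells, with 1 to 9 per type. Its highest value in both libraries was in memory-like CD8-negative T cells, 6 UMIs each (10.6 and 8.52 CPM). The intervals of types next to each other in the order overlapped throughout, and no type reached the 30 UMIs set for a comparison. Naive-like CD8-negative T cells held 3 mutant UMIs and 1 wildtype UMI. The memory-like over naive-like ratio was 5.98 (1.28 to 36.98) in the mutant and 17.02 (2.07 to 783.1) in the wildtype library. Both intervals lay above 1, but they rest on these few UMIs. The antisense gene Gm17041 overlaps the last exon of Cish, and whether counting used the strand is not given in the sources used here.

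The libraries were then compared type by type. A gene counted as measured in a type when its UMIs in the 2 libraries together reached 30, and as higher or lower when the ratio of CPM was at least 1.5-fold. Of 70 pairs of gene and type, 54 were measured: 1 was higher by 1.5-fold or more in the mutant library, as were 5.62% of all measured gene and type pairs, and 6 were lower by 1.5-fold or more, as were 6.66% of all pairs. By the counting interval alone, 0 pairs lay wholly above 1 and 8 wholly below, against 4.94% and 4.48% of all pairs. The single higher pair was Socs1 in memory-like CD8 T cells (1.74, 0.846 to 3.59), a type in which 5.92% of all measured genes were higher. The 6 lower pairs were Il7r in NK-like cells (0.588, 0.224 to 1.31, on 7 and 46 UMIs), where 12.4% of genes were lower, Socs1 in memory-like CD8-negative T cells (0.582, 0.293 to 1.11), where 7.08% were, and Socs3 in 4 types. The higher pair and the first 2 lower pairs have intervals that hold 1, so no difference was shown for them at this depth. The median log2 ratio of the measured members ran from -0.21 in B-like to 0.16 in naive-like CD8 T cells, beside -0.05 to 0.03 for all measured genes of each type.

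**Figure D2:**
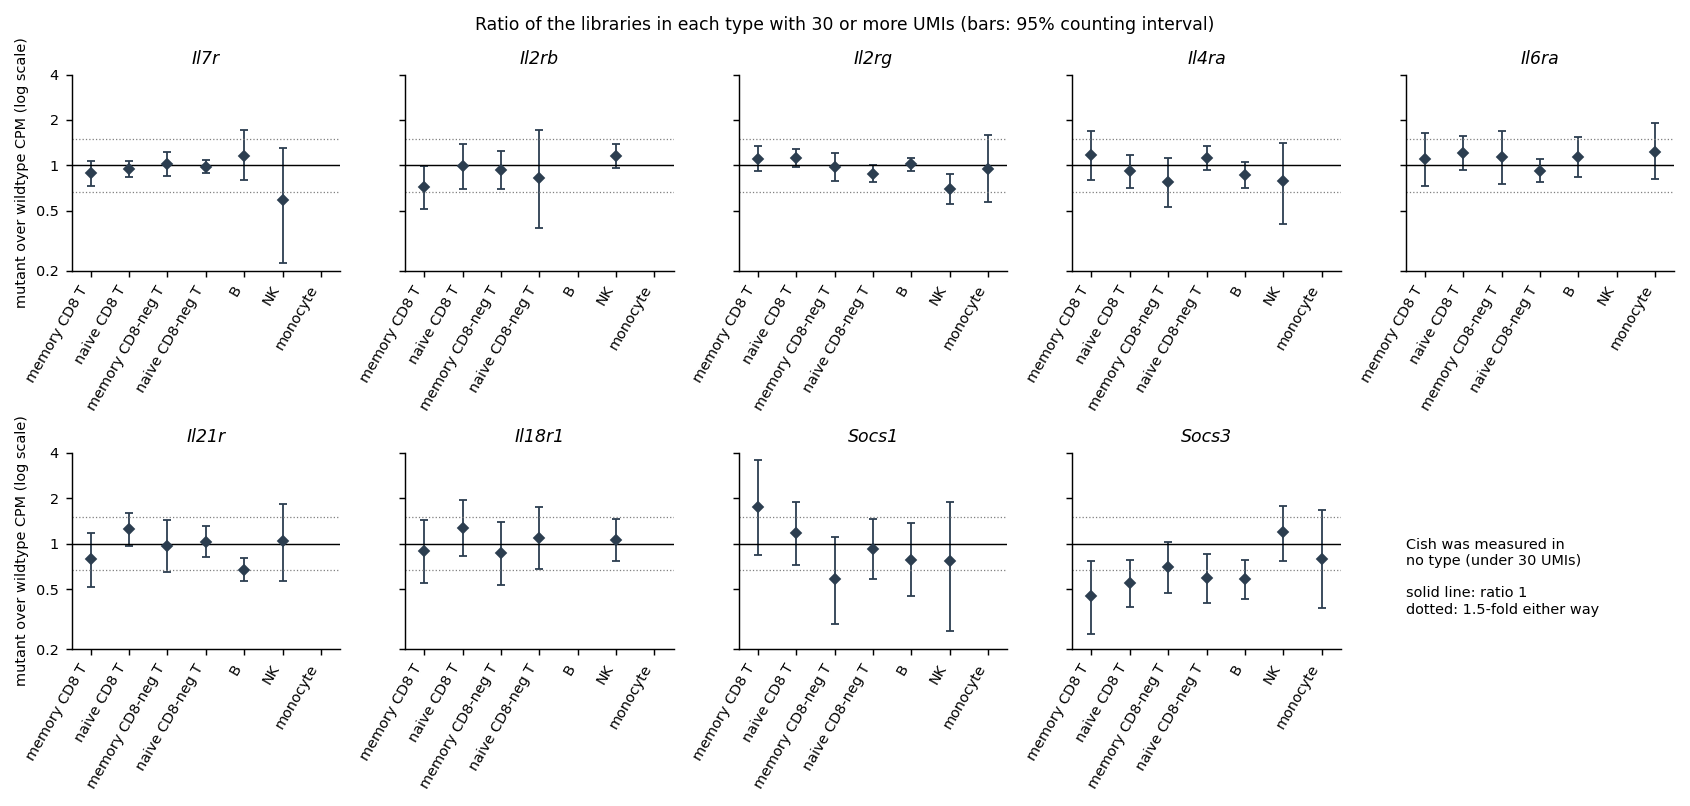
Mutant over wildtype ratio of CPM (log scale) for each gene in each type with 30 or more UMIs in the 2 libraries together. Bars are 95% counting intervals, the solid line is a ratio of 1 and dotted lines mark 1.5-fold. Socs3 lies below 1 in 6 of 7 types with 4 intervals clear of 1, and the other intervals clear of 1 are those of Il21r in B-like, Il2rg in NK-like and naive-like CD8-negative T, and Il2rb in memory-like CD8 T cells.

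Socs3 was the one gene of the 10 that was lower in several types. The ratio of mutant over wildtype was 0.448 (0.2503 to 0.764) in memory-like CD8 T, 0.549 (0.379 to 0.783) in naive-like CD8 T, 0.589 (0.404 to 0.848) in naive-like CD8-negative T and 0.583 (0.433 to 0.782) in B-like cells. It was 0.701 (0.473 to 1.03) in memory-like CD8-negative T, 0.794 (0.375 to 1.67) in monocyte-like and 1.19 (0.773 to 1.78) in NK-like cells. Of 5750 genes measured in at least 4 types, 15 (0.261%) were at least 1.5-fold lower in 4 or more, and Socs3 was among them. By type, 7.55%, 5.06%, 4.13% and 3.93% of all measured genes passed that threshold in memory-like CD8 T, naive-like CD8 T, naive-like CD8-negative T and B-like cells. The share of cells with a Socs3 UMI followed: 7.14% of mutant and 16.6% of wildtype memory-like CD8 T cells, 7.96% and 14.0% of naive-like CD8 T cells and 5.35% and 8.67% of B-like cells, or 2.45% and 5.16%, 2.89% and 4.77%, and 2.29% and 3.84% after thinning. No type should lack Socs3 altogether, so no background share can be set beside these.

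Free RNA moved the same way as the cells, with 9 mutant UMIs (22.8 CPM) and 28 wildtype UMIs (60.8 CPM) of Socs3, a ratio of 0.374 (0.155 to 0.816). With the free RNA profile subtracted from the cells, the ratios were 0.452, 0.562, 0.614 and 0.627 in memory-like CD8 T, naive-like CD8 T, naive-like CD8-negative T and B-like cells, and 1.26 in NK-like cells. NK markers in the T-like types were also lower in the mutant library, as given above; without the T-like cells that held an NK marker UMI, the ratios were 0.565 (0.284 to 1.07), 0.553 (0.374 to 0.803) and 0.607 (0.406 to 0.897) in the first 3 of these types. When CD8-negative T cells had to hold a Cd4 UMI, which left 201 mutant and 219 wildtype naive-like cells, the naive-like ratio was 1.05 (0.511 to 2.13). With naive and memory sums that had to differ 2-fold, the memory-like CD8 T ratio was 0.558 (0.272 to 1.07), an interval that holds 1. The naive-like ratios were then 0.527 (0.324 to 0.831) in CD8 T and 0.530 (0.333 to 0.829) in CD8-negative T cells. Among B-like cells, those with a UMI of the subset genes Vpreb3, Zbtb32, Bhlhe41 or Atf3 made up 43.2% of mutant and 38.1% of wildtype cells. Socs3 stood at 0.540 (0.349 to 0.831) in them and 0.637 (0.418 to 0.960) in the rest.

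Il21r in B-like cells and Il2rg in NK-like cells were also lower with intervals clear of 1, but by less than 1.5-fold. The Il21r ratio in B-like cells was 0.671 (0.564 to 0.798), while it ran from 0.789 to 1.24 in the T-like types, with all 4 intervals holding 1. Within B-like cells it was 0.684 (0.521 to 0.897) in those with a UMI of Vpreb3, Zbtb32, Bhlhe41 or Atf3 and 0.694 (0.550 to 0.873) in the others. It was 0.624 (0.475 to 0.815) in cells with a UMI of the mature B cell gene Fcer2a, 106 mutant and 170.4 wildtype CPM, and 0.755 (0.597 to 0.956) in cells without one. Both splits divide the same B-like cells, so the 4 groups overlap and are not separate observations. The ratio was below 1 in each, with the interval clear of 1. Free RNA of Il21r stood at 50.6 mutant and 91.2 wildtype CPM, a ratio of 0.555 (0.308 to 0.966). That of Il2rg stood at 260 mutant and 350 wildtype CPM, a ratio of 0.745 (0.576 to 0.960), so free RNA of both genes was also lower in the mutant library. After subtraction of free RNA the B-like ratio was 0.708 (0.589 to 0.849) and the Il2rg ratio in NK-like cells 0.693 (0.546 to 0.876).

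The other 2 intervals clear of 1 were close to it. Il2rg in naive-like CD8-negative T cells was at 0.882 (0.777 to 0.9998). Il2rb in memory-like CD8 T cells was at 0.719 (0.515 to 0.991), and at 1.002 (0.671 to 1.49) without T-like cells that held an NK marker UMI. Il4ra, Il6ra and Il18r1 had no interval clear of 1 in any measured type, and their ratios ran from 0.770 to 1.17, 0.924 to 1.23 and 0.864 to 1.27.

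Memory-like and naive-like T cells of the same library were compared for the same genes, which sets cells of 1 pool against each other and gives the result once in each library. Of the pairs of gene and T lineage, 4 were at least 1.5-fold higher in memory-like cells in both libraries and 1 was lower, against 3.63% and 1.26% of all measured genes and lineages. In CD8 T cells alone 1.94% and 0.962% of genes did so, and in CD8-negative T cells 5.13% and 1.52%. The higher ones were Il2rb in both lineages and Il18r1 and Socs3 in CD8-negative T cells, and the lower one was Il6ra in CD8-negative T cells.

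Il2rb showed the largest contrast. In CD8-negative T cells the mutant library had 85 UMIs in memory-like and 14 in naive-like cells, an 18.2-fold difference (10.3 to 34.6), and the wildtype library 113 and 20, a 16.0-fold difference (9.91 to 27.2). In CD8 T cells the difference was 2.08-fold (1.42 to 3.06) in the mutant and 2.87-fold (2.18 to 3.79) in the wildtype library, where the naive-like cells themselves carried Il2rb at 46.9 and 47.3 CPM. NK markers moved with this contrast: they stood at 104 CPM in memory-like and 20.6 CPM in naive-like CD8-negative T cells of the mutant library, and at 203 and 89.1 CPM in those of the wildtype library, with 6 of 7 NK markers detected in the mutant memory-like cells (Klra8 at 0). Without cells that held an NK marker UMI, the CD8-negative values were 11.2-fold (5.90 to 22.7) in the mutant and 14.3-fold (7.49 to 29.6) in the wildtype library, and the CD8 values 2.04-fold (1.36 to 3.04) and 1.97-fold (1.38 to 2.81).

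Il18r1 was 2.59-fold (1.56 to 4.27) higher in memory-like than naive-like CD8-negative T cells of the mutant library and 3.26-fold (2.09 to 5.12) higher in those of the wildtype library. With a Cd4 UMI required the values were 1.38-fold (0.243 to 5.35) in the mutant library, short of 1.5-fold, and 3.16-fold (1.28 to 8.06) in the wildtype library. In CD8 T cells it was 1.46-fold (0.876 to 2.38) higher in the mutant and 2.06-fold (1.38 to 3.08) higher in the wildtype library. Socs3 was 2.86-fold (1.85 to 4.42) and 2.41-fold (1.76 to 3.29) higher in memory-like CD8-negative T cells of the mutant and wildtype libraries. In CD8 T cells its ratio was 0.903 (0.490 to 1.60) in the mutant and 1.11 (0.808 to 1.51) in the wildtype library. Both CD8 intervals held 1, so no difference was shown there, and they are too wide to show the states to be level. With a Cd4 UMI required, the CD8-negative Socs3 values were 1.89-fold (0.662 to 4.79) in the mutant and 2.95-fold (1.53 to 5.72) in the wildtype library. Il6ra was lower in memory-like than naive-like CD8-negative T cells, with 88.2 against 135 CPM in the mutant (ratio 0.653, 0.471 to 0.890) and 78.1 against 146 CPM in the wildtype library (0.534, 0.393 to 0.715). With a Cd4 UMI required, the Il6ra ratio was 1.39 (0.739 to 2.46) in the mutant and 0.600 (0.337 to 1.02) in the wildtype library. Without cells that held an NK marker UMI it was 0.758 (0.540 to 1.04) in the mutant library, short of 1.5-fold, and 0.645 (0.457 to 0.893) in the wildtype library. With marker sums that had to differ 2-fold it was 0.358 (0.191 to 0.620) and 0.389 (0.246 to 0.590).

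The remaining genes differed little or in 1 library only. Il7r stood at 0.862 and 0.919 (memory-like over naive-like) in CD8 T cells of the mutant and wildtype libraries and at 0.912 and 0.868 in CD8-negative T cells, and Il2rg at 1.09 and 1.11 and at 1.11 and 1.01. Il4ra was at 0.611 (0.440 to 0.833) in CD8-negative T cells of the mutant library and 0.886 (0.679 to 1.14) in those of the wildtype library. Il21r was at 0.682 (0.458 to 0.995) in mutant and 1.07 (0.804 to 1.42) in wildtype CD8 T cells. Socs1 was at 1.25 (0.634 to 2.33) in mutant and 1.97 (1.22 to 3.17) in wildtype CD8-negative T cells. The difference between the libraries in these contrasts was not tested.

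**Figure D3:**
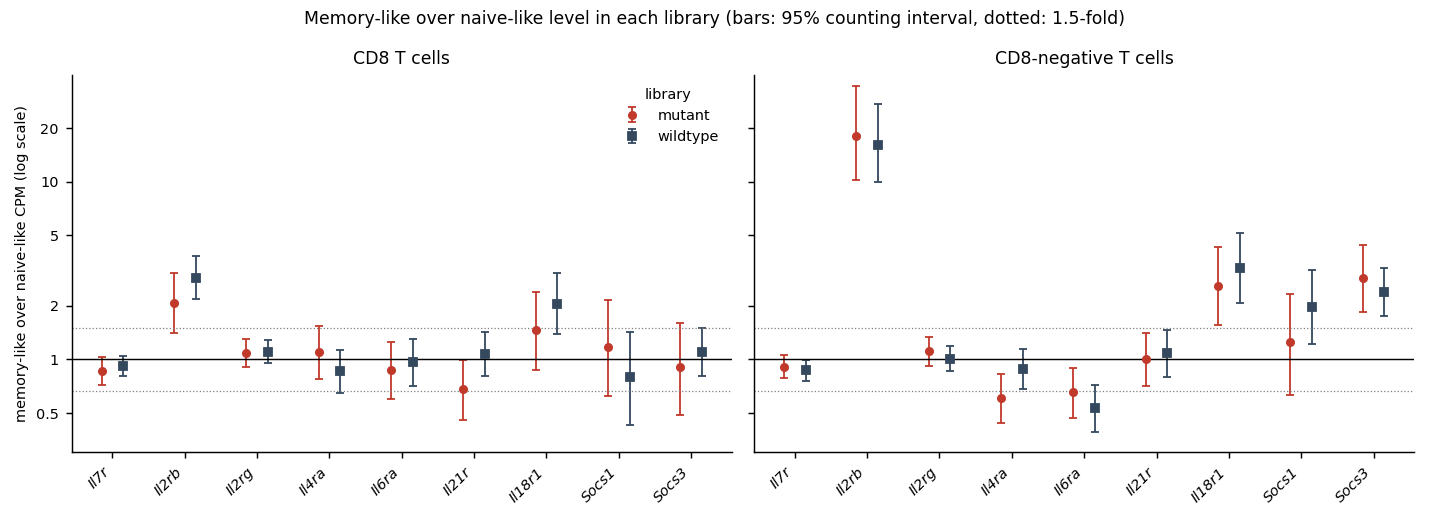
Memory-like over naive-like ratio of CPM (log scale) for 9 genes in CD8 T cells (left) and CD8-negative T cells (right), in the mutant library (circles) and the wildtype library (squares). Bars are 95% counting intervals and dotted lines mark 1.5-fold. Il2rb in CD8-negative T cells reaches 18.2 and 16.0, Il18r1 and Socs3 lie above 2 there, and Il6ra lies below 1.

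The split into naive-like and memory-like cells is a cut through a continuous marker score, and 63 of 196 memory-like and 95 of 490 naive-like CD8 T cells of the mutant library lay within 2 UMIs of it, as did 82 of 295 memory-like and 155 of 727 naive-like ones in the wildtype library. The members were therefore also followed along the share of naive markers among all UMIs of naive and memory markers, in bins of 20%. In CD8-negative T cells Il2rb stood at 338 CPM at the memory end (78 cells) and 9.54 CPM at the naive end of the mutant library, and at 209 CPM and 5.45 CPM in the wildtype library. Its level dropped early: in the middle bin (40% to 60%) it was already 13.5 and 28.4 CPM. In CD8 T cells the span was smaller, with 175 CPM at the memory end (30 cells) and 43.8 CPM at the naive end of the mutant library, and 209.7 and 46.5 CPM in the wildtype library.

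Il6ra and Il7r ran the other way in part. Il6ra in CD8-negative T cells stood at 46.6 CPM (mutant library) and 40.3 CPM (wildtype library) at the memory end, against 118 and 134 CPM at the naive end, with the highest values in the bins from 40% to 80% (143 and 157 CPM). Il7r in CD8 T cells was lowest at the memory end, with 164 CPM (15 UMIs) in the mutant and 198 CPM (35 UMIs) in the wildtype library, and stood at 298 to 388 and 342 to 419 CPM in the other bins. Along the CD8 T bins mutant Socs3 lay between 26.3 and 43.9 CPM and wildtype Socs3 between 50.1 and 90.2 CPM. The mutant value was the lower in each bin. The memory-end bin held only 4 mutant and 13 wildtype UMIs, with overlapping intervals (11.9 to 112 and 39.2 to 126 CPM). The bins regroup much the same cells as the types above. In CD8-negative T cells the mutant level of Socs3 was also below the wildtype level in all 5 bins, by the least at the memory end (111 and 117 CPM). That bin held 19 mutant and 32 wildtype UMIs, with overlapping intervals (66.7 to 173 and 80.1 to 165 CPM).

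**Figure D4:**
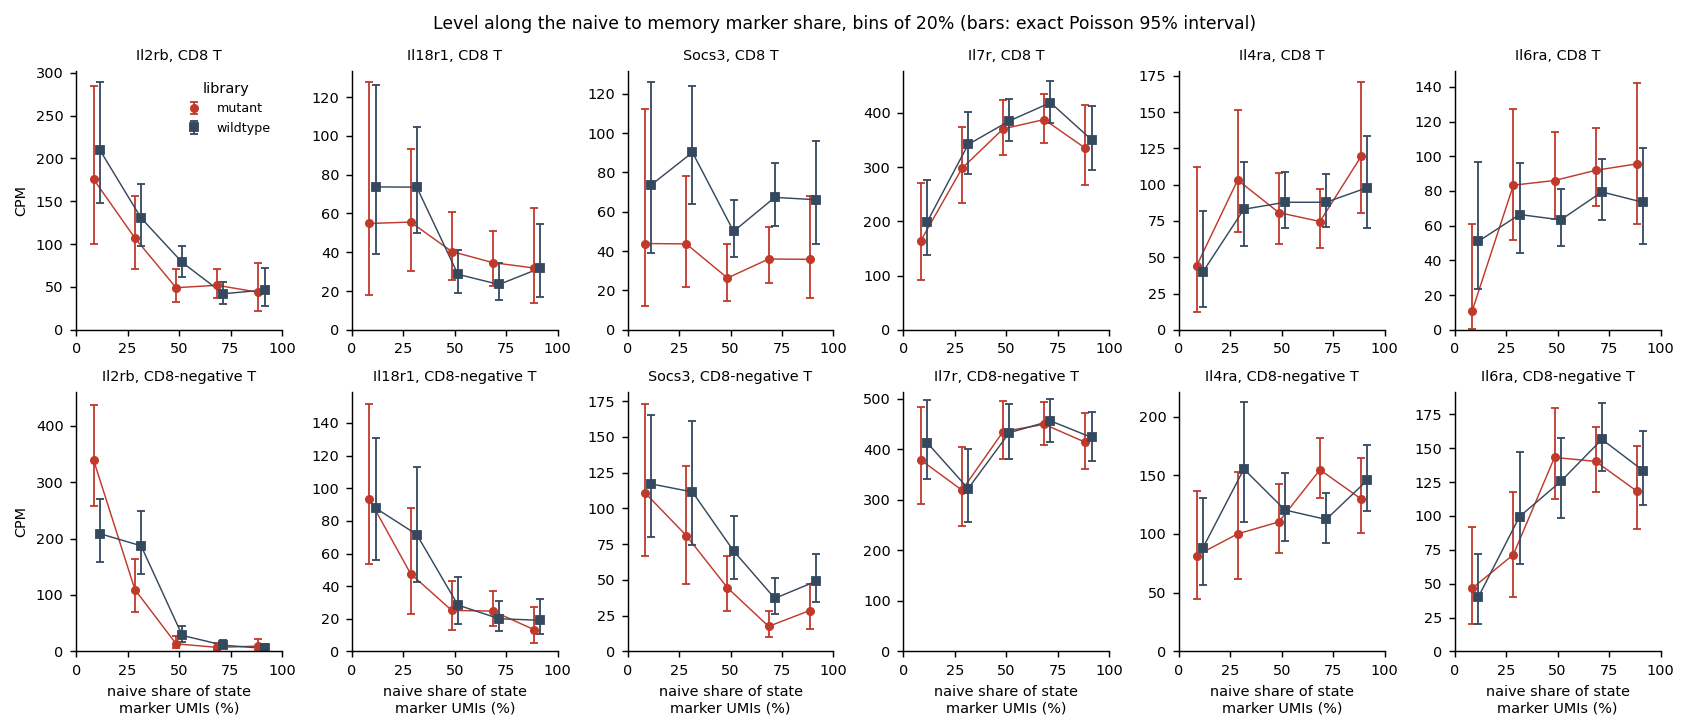
Level in CPM of 6 genes in CD8 T cells (top) and CD8-negative T cells (bottom), against the naive share of naive and memory marker UMIs in 5 bins, in the mutant library (circles) and the wildtype library (squares), with exact Poisson 95% intervals. The memory end is on the left. Il2rb and Il18r1 fall toward the naive end, mutant Socs3 lies below wildtype Socs3 in every bin, and Il6ra is lowest at the memory end.

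The common gamma chain was seen in cells with and without a UMI of a specific chain, at shares that varied by chain, type and library. Among memory-like CD8 T cells with an Il2rb UMI, 57.8% of mutant cells (26 of 45) and 71.1% of wildtype cells (54 of 76) also had an Il2rg UMI, against 56.3% and 53.9% of cells without an Il2rb UMI. In memory-like CD8-negative T cells the shares were 46.7% of mutant and 56.3% of wildtype cells with Il2rb, against 41.9% and 42.7% of those without, and in NK-like cells 44.8% and 50.3% against 31.8% and 38.9%. Among B-like cells with an Il21r UMI, 46.3% of mutant and 47.7% of wildtype cells had an Il2rg UMI, against 46.5% and 43.9% of the rest. Cells with more UMIs in all have more of any gene, and this was not removed from these shares. Il2rb and Il7r, the IL-15 and IL-7 receptor chains, occurred together in 16 of 45 mutant (35.6%) and 34 of 71 wildtype (47.9%) memory-like CD8-negative T cells with Il2rb, against 54.4% and 48.3% of those without. In NK-like cells only 3 of 105 mutant and 20 of 362 wildtype cells with Il2rb had an Il7r UMI.

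Genes with the most similar levels over the 14 values (7 types in 2 libraries) were sought among 6129 genes with at least 200 UMIs, by Pearson's r of log2(CPM + 10). The types share libraries and cells of 1 lineage, so r is a description only. Il7r was closest to Bcl11b, a transcription factor of T cell identity (r = 0.994). Il2rb was closest to Cd160, a receptor of NK and memory CD8 T cells (r = 0.965), and to the granule gene Nkg7 (r = 0.9502), and Il18r1 to Trip11 (r = 0.976) and to the thrombin receptor gene F2r, which was also the third nearest of Il2rb. Il21r was closest to the activation marker Cd69 (r = 0.959), Il2rg to Nucks1 (r = 0.967), Il4ra to Usp53 (r = 0.949) and Il6ra to the kinase gene Stk38 (r = 0.925). Socs1 was closest to the IL-27 receptor gene Il27ra (r = 0.953). Socs3 had no gene closer than Tbl1xr1, a subunit of corepressor complexes (r = 0.809). The value for Cish rests on 43 UMIs and is not given.

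Other genes of the pathway were read from 6 lists with 63 genes, of which 46 were measured in at least 1 type. Over all 199 measured pairs of list gene and type, 9 were higher in the mutant library by 1.5-fold or more and 18 were lower by as much, beside 5.62% and 6.66% of all measured pairs, and the median log2 ratio was -0.02. The other receptor chains (18 of 25 genes measured, 73 pairs) had 2 higher and 5 lower pairs and a median log2 ratio of -0.09. The higher ones were both in memory-like CD8-negative T cells: the interferon-gamma receptor chain Ifngr2 (67.0 mutant and 24.1 wildtype CPM, ratio 2.78, 1.53 to 5.24) and the IL-17 receptor gene Il17ra (106 and 68.2 CPM, 1.55, 1.04 to 2.32). The lower ones were Ifnar2 (0.605, 0.388 to 0.935), Csf2rb (0.613, 0.301 to 1.22) and Csf3r (0.577, 0.262 to 1.23) in monocyte-like cells, Ifngr2 in memory-like CD8 T cells (0.645, 0.290 to 1.34) and the TSLP receptor gene Crlf2 in memory-like CD8-negative T cells (0.634, 0.371 to 1.06). Of these 5, the interval of Ifnar2, a chain of the type I interferon receptor, was clear of 1.

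Among 4 Janus kinase genes (18 pairs), Jak3, which binds the common gamma chain, was 2.13-fold (1.08 to 4.05) higher in mutant NK-like cells and at 0.646 (0.335 to 1.20) in naive-like CD8-negative T cells, where Tyk2 was at 0.589 (0.258 to 1.27). Among 7 STAT genes, 3 of 39 pairs were higher in the mutant library and 2 lower. Stat5b was higher in mutant naive-like CD8-negative T (1.54, 1.08 to 2.21) and NK-like cells (2.57, 1.13 to 5.65 on 12 and 18 UMIs), and Stat6, which acts after the IL-4 receptor, in memory-like CD8 T cells (2.13, 1.08 to 4.26). Stat4, which acts after IL-12 receptors, was lower in mutant memory-like CD8-negative T cells (52.9 and 93.7 CPM, 0.564, 0.354 to 0.882). Of the other feedback genes (39 pairs), Socs7 stood at 1.70 (0.967 to 3.07) in B-like cells and Socs6 and Pias3 at 0.399 (0.0779 to 1.29) and 0.662 (0.228 to 1.59) in NK-like cells. None of the other feedback genes was called lower in T-like or B-like cells. Of these 11 genes, only 4 to 6 were measured in each T-like type and 9 in B-like cells. A gene that was not measured in a type could not be called there, so this is not set against Socs3.

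Of the genes known as STAT5 targets (23 pairs), the cell cycle inhibitor gene Cdkn1a was lower in mutant memory-like CD8-negative T cells with 6 mutant and 29 wildtype UMIs (0.257, 0.0872 to 0.630). Pim2, a survival kinase gene, was at 0.600 (0.293 to 1.17) there, at 0.585 (0.268 to 1.14) in NK-like cells and at 1.53 (1.01 to 2.36) in B-like cells, and the survival gene Bcl2 at 0.628 (0.384 to 1.02) in monocyte-like cells. Of 10 ligand genes only Il2, Il18 and Ifng were measured in any type. Il18 was higher in mutant B-like cells (20.8 and 9.71 CPM, 2.14, 1.28 to 3.69), and Il2 stood at 0.665 (0.395 to 1.11) there. Ifng was at 0.655 (0.355 to 1.17) in memory-like CD8-negative T and 0.639 (0.387 to 1.01) in NK-like cells. Between T cell states, Il10rb (2.99-fold in the mutant and 2.94-fold in the wildtype library) and Ifngr1 (1.60-fold and 1.73-fold) were higher in memory-like than naive-like CD8-negative T cells of both libraries, with intervals clear of 1. Jak2 stood at 1.99-fold (0.990 to 3.91) in the mutant and 2.43-fold (1.22 to 4.79) in the wildtype library. Ifngr2 was lower there in both (0.625, 0.428 to 0.890, and 0.324, 0.184 to 0.536), and the IL-6 signalling chain Il6st stood at 0.660 (0.350 to 1.17) in the mutant and 0.529 (0.306 to 0.868) in the wildtype library.

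**Figure D5:**
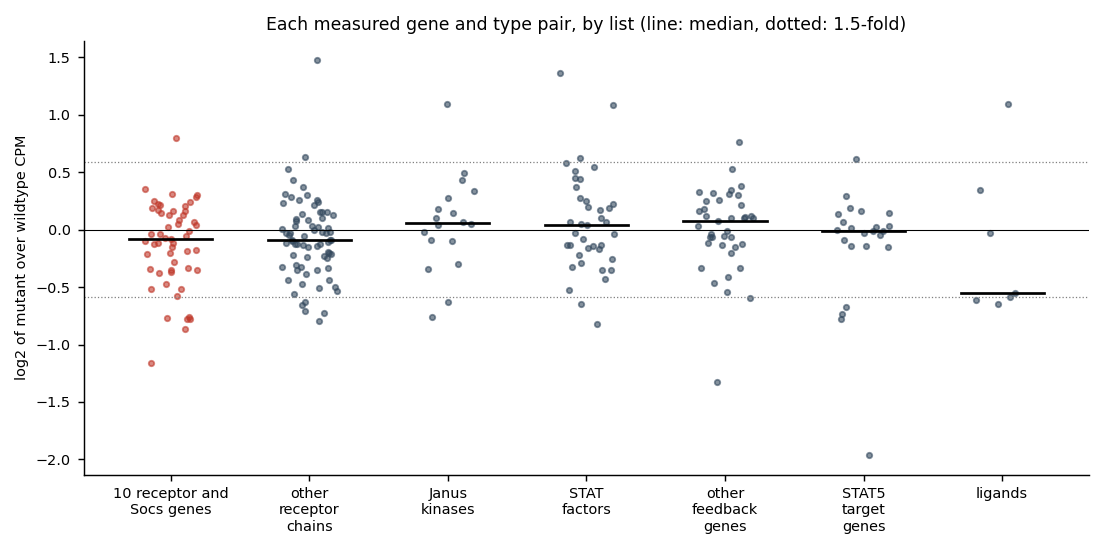
Log2 ratio of mutant over wildtype CPM for each measured pair of gene and type, for the 10 receptor and Socs genes and for the 6 pathway lists. Black lines are medians and dotted lines mark 1.5-fold. Medians lie near 0 except for the ligands, which have only 7 pairs, and the lowest points are Cdkn1a and Socs6.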

How the data were processed

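Blood mononuclear cells of 2 genotypes were measured with 1 single-cell library each, as described above. The authors deposited raw counts (UMIs per gene and barcode), which per the submitters' processing notes came from Cell Ranger 2.1.1 and build mm10. Cells were typed by the marker set with most UMIs (at least 3, and 3 times the next set), with at most 5% of UMIs from the red cell set, and as naive-like or memory-like by the larger of sums over 8 and 14 markers (at least 3 UMIs). These thresholds were set after the distributions of marker UMIs were seen. No doublet caller was used in the main setting. Cells whose leading marker set had under 3 times the UMIs of the next stayed untyped. Typed cells could still hold UMIs of another lineage. Removal of cells with a Scrublet score above 0.2 (scanpy 1.11.5), 69 mutant (1.65%) and 133 wildtype (2.55%) cells, was an alternative. Counts were summed per type and library and given as CPM. Intervals are exact (Poisson for levels, conditional binomial for ratios) and cover counting error only. They were checked on simulated Poisson counts, which hold no spread between cells or animals, so the check concerns the calculation alone. Thinning to 800 UMIs gives expected values, a choice made after a single random draw proved noisy. The 10 genes and the pathway lists were chosen with earlier results of these data known. From each list, genes past 1.5-fold were named, except 1 result that is not reported here, and the 3 with most UMIs could be named too. Gene and exon positions are from GENCODE (GRCm38), and promoter windows are from RefSeq.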

Additional observations from a re-analysis of the deposited data

How the results depend on the processing

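With 1 library per genotype the spread between animals is unknown, and depth limits genes with few UMIs, above all Cish and Socs1. No paired analysis was possible because each genotype had 1 library. Over 90 single ratios and their alternatives, 1225 of 1258 values stayed within the main counting interval, 29 moved outside it and 4 turned round. Turning round was counted only for ratios at least 1.5-fold from 1 in the main setting. Values of the other ratios that crossed 1 are among the 1225 and the 29. The 4 were Socs3 in naive-like CD8-negative T cells (1.05, mutant over wildtype), Il6ra in the mutant library (1.39, memory-like over naive-like) and Socs1 in the wildtype library (0.869, memory-like over naive-like) when CD8-negative T cells needed a Cd4 UMI, and Socs1 in memory-like CD8 T cells (0.882, mutant over wildtype) when naive and memory sums had to differ 2-fold; the cause was not tested. The 1 pair higher in the mutant library became 2 with a Cd4 UMI required, 3 with pairs of 10 UMIs, and 0 after thinning, with the 2-fold margin, with pairs of 100 UMIs, without Crip1 as a memory marker, and without T cells that held an NK marker UMI. The 6 lower pairs became 3 after thinning and 3 with pairs of 100 UMIs, both of which leave fewer pairs measured. The 4 pairs higher in memory-like cells became 1 with a Cd4 UMI required and 1 with pairs of 100 UMIs. The 1 lower pair became 0 after thinning, with a lineage margin of 5 and without T cells that held an NK marker UMI. The settings without Crip1, NK marker UMIs or B cell subset genes were chosen after seeing the data. Il2rb in CD8-negative T cells ran from 11.2-fold to 55.1-fold (mutant) and from 13.7-fold to 40.8-fold (wildtype) higher in memory-like cells over 14 alternatives, and the B-like Socs3 ratio ranged from 0.542 to 0.637.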
